A study of Mus musculus with 12 samples.

Results

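The 10 genes described here are the 4 isoform genes of CaM kinase II (Camk2a, Camk2b, Camk2d and Camk2g), the genes of its 2 inhibitor proteins (Camk2n1 and Camk2n2), the kinase genes Camk4 and Camk1d, and the genes of the upstream CaM kinase kinases (Camkk1 and Camkk2). They were taken by symbol from a table of 57132 features, each symbol matched 1 row, and all 10 passed the filter on low counts. Calcium that enters a neuron binds calmodulin, and calcium-loaded calmodulin switches on the CaM kinases. CaM kinase II (CaMKII) forms large holoenzymes whose subunits phosphorylate each other, so that activity can outlast the calcium signal, and it is best known for setting synaptic strength at glutamate synapses, including those onto the spiny neurons of the striatum. The CaM kinase kinases act upstream of CaM kinase I, CaM kinase IV and the energy sensor AMPK.

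Striatal RNA of 6 TAAR5-KO mice, which lack trace amine-associated receptor 5, was compared with that of 6 TAAR5-WT littermates, all C57Bl/6, of both sexes and 10 months old. The tissue was what was left of a front coronal brain slice once the cortex had been cut away, and total RNA was depleted of ribosomal RNA before directional single-end sequencing. A library (NK1 to NK6 labelled TAAR5-KO, NK7 to NK12 labelled TAAR5-WT) is 1 sample of its genotype, and no library is tied to a sex or an animal number. Levels are in CPM, counts brought to the same library total, on library sizes scaled by the trimmed mean of M-values (TMM). Differences are log2 fold changes of libraries labelled TAAR5-KO over libraries labelled TAAR5-WT, and a gene was called at an adjusted p under 0.1 in edgeR's likelihood ratio test over 13902 features.

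Total counts ran from 11269915 to 34824450 per library, of which 64.3% to 88.1% lay on ribosomal RNA features, so that 1819907 to 6399188 counts remained for other genes. A floor of 3 counts was worth 0.0679 to 0.362 CPM. Taar5 itself had 1 to 6 counts in libraries labelled TAAR5-KO and 0 to 2 in libraries labelled TAAR5-WT, the reverse of what the labels name. Counts this near the floor of 3 cannot settle the labels, and where the reads lay on the gene was not examined. Every direction given here follows the labels as they stand. All 10 spiny neuron markers examined were counted in every library (summed level 222 to 478 CPM), as were all 10 cortical pyramidal neuron markers (58.9 to 156 CPM), although the cortex had been removed.

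The CaMKII isoforms come from separate genes whose coding sequences resemble each other closely, so exon 5, which encodes part of the kinase domain, is shown for 3 of them to make visible how a read of 100 bases tells them apart. Capitals mark the 12 of 66 positions at which the 3 genes do not all carry the same base. The sequences are coding bases 276 to 341 on GRCm39, Camk2b from chr11:5947883-5947948 on the minus strand, Camk2d from chr3:126561163-126561228 on the plus strand and Camk2g from chr14:20820132-20820197 on the minus strand.
Camk2b: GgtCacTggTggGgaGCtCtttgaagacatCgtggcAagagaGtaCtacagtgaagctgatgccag
Camk2d: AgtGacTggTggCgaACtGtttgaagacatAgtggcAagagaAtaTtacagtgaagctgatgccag
Camk2g: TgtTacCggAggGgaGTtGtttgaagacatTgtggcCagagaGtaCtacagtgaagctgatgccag
Camk2d differed from Camk2b at 8 positions and from Camk2g at 11, and Camk2b differed from Camk2g at 8. Over the whole longest annotated coding sequences, the longest exact run shared by any 2 of the 4 isoform genes was 32 bases (Camk2a and Camk2b), and it was 23 bases for each pair with Camk2d. No window of 100 bases in the annotated transcripts of any of the 10 genes occurred in another of the 10. Windows shared with a gene outside the family made up 25.2% of those of Camk2n2, which overlaps Eef1akmt4 on the opposite strand. They made up 8.65% of those of Camk2b, and none of those of Camk2a, Camk2d, Camk2n1 or Camk1d. Transcripts and coding sequences were taken from GENCODE M39, a later release than the study names, so these shares need not hold for the exons counted. For Camk2n2 the 1 transcript there gave 2578 windows, whereas the exons counted had 1291 bases. The strand setting of the counting is not given in the sources used here, so the Camk2n2 counts are uncertain.

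Per length, the inhibitor gene Camk2n1 stood highest and Camk2d lowest. Camk2n1 encodes a small protein that binds the active kinase and blocks it, and its level was 49.6 ± 9.65 CPM per kb of merged exons (SD over 12 libraries). Camk2a, whose alpha subunit prevails in forebrain neurons, followed at 34.1 ± 7.60 CPM per kb. In every library Camk2n1 lay 1.20 to 1.73 times above Camk2a, and Camk2a lay 3.17 to 5.79 times above Camk2b. Camk2b, whose beta subunit also binds actin filaments, had 7.83 ± 0.633 CPM per kb, and Camk4, which encodes a mainly nuclear kinase, had 7.30 ± 1.11 CPM per kb. These neighbours did not separate beyond their spread, with Camk2b above Camk4 in 9 of 12 libraries. The same holds for Camk1d (3.08 CPM per kb) over Camk2n2 (2.84 CPM per kb), in this order in 6 of 12 libraries, and for Camk2n2 over Camk2g (2.34 CPM per kb), in 9 of 12. Camkk2 (1.63 CPM per kb) was below Camk2g and above Camkk1 in all 12 libraries. Camkk1 (0.846 CPM per kb) and Camk2d (0.792 CPM per kb) kept their order in 8 of 12. The merged exons of Camk2d span 22493 bases, the most of the 10 genes, against 1632 bases of longest coding sequence, so the rank of Camk2d depends on the length used.

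**Figure D1:**
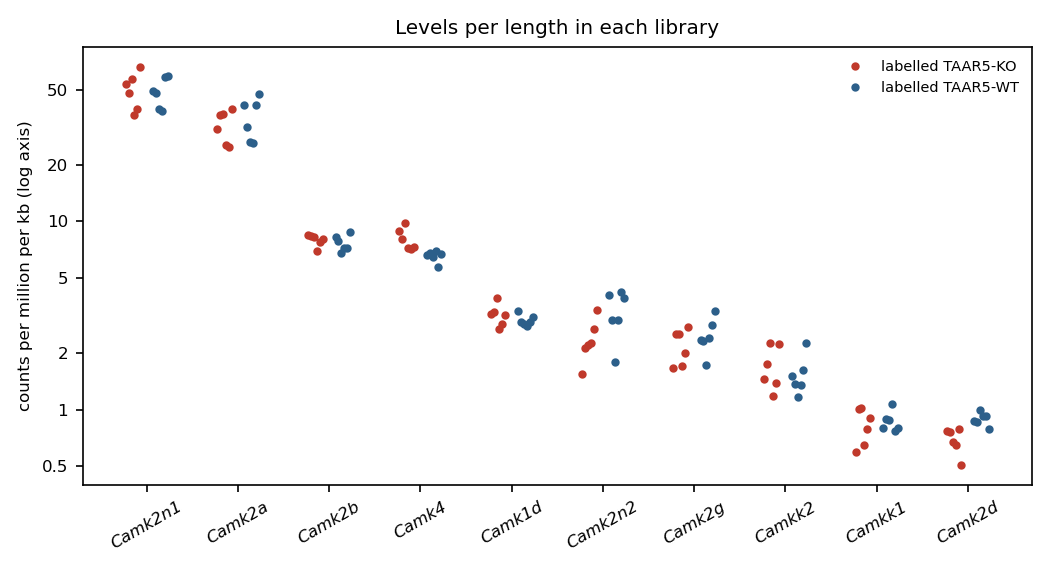
Level of each of the 10 genes in each library, in CPM per kb of merged exons on a log axis, with libraries labelled TAAR5-KO in red and libraries labelled TAAR5-WT in blue. Camk2n1 and Camk2a lie above 20 CPM per kb in all 12 libraries and Camk2d lies below 1 in all 12.

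Between the genotypes, 1 of the 10 genes was called, Camk2d, which was lower in libraries labelled TAAR5-KO, against 1.65% called among all features tested and 0.691% called lower. At an unadjusted p under 0.05 there were 3 of the 10, Camk2d, Camk2n2 and Camk4, against 11.9% of all features. Groups that did not overlap were found for Camk2d and Camk4, 2 of the 10, against 1.01% of all features. The median log2 fold change of the 10 was 0.01, against −0.01 over all features tested. Edges of the 95% intervals ran from −0.88 (Camk2n2) to 0.48 (Camk4), so that no interval reached a log2 fold change of −1 or 1.

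**Figure D2:**
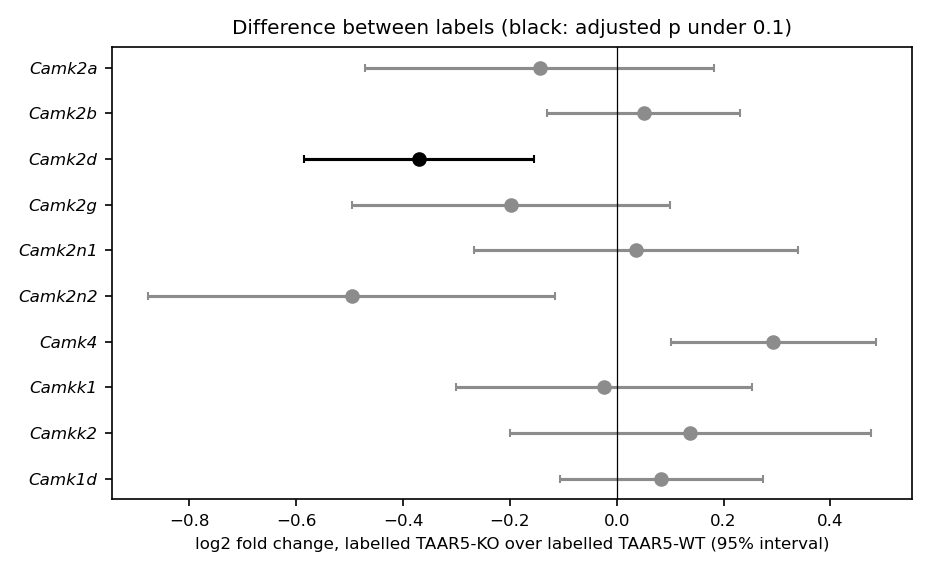
Log2 fold change of each of the 10 genes, libraries labelled TAAR5-KO over libraries labelled TAAR5-WT (6 each), with 95% intervals from the edgeR fit, black for an adjusted p under 0.1. The intervals of Camk2d, Camk2n2 and Camk4 lie off 0, and Camk2d is the only one called.

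**Figure D3:**
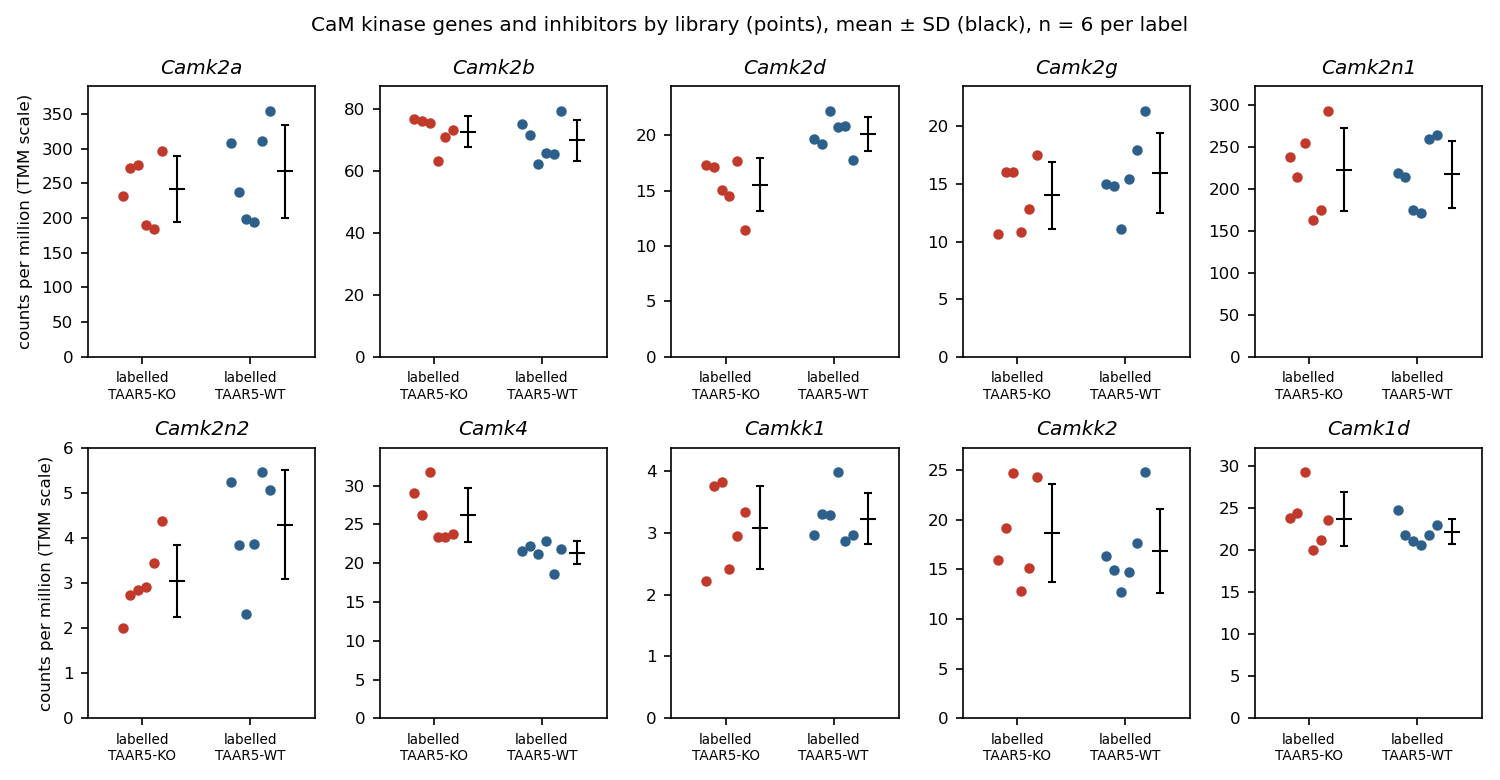
CPM of each of the 10 genes in each library (points, red for labelled TAAR5-KO and blue for labelled TAAR5-WT), with the mean ± SD of the 6 libraries of each label in black and each vertical axis starting at 0. The points of the labels lie fully apart for Camk2d and Camk4 and overlap for the other 8 genes.

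Camk2d encodes the delta subunit of CaMKII, the isoform that prevails in heart and is also found across the brain. In libraries labelled TAAR5-KO its lowest, median and highest levels were 11.4, 16.1 and 17.7 CPM, and in libraries labelled TAAR5-WT they were 17.8, 20.2 and 22.2 CPM. All 6 libraries labelled TAAR5-KO were thus below all 6 labelled TAAR5-WT, with NK5 and NK12 nearly touching. The means were 15.5 ± 2.39 and 20.1 ± 1.54 CPM (SD, n = 6 each), and the level fell by 22.7% in the fit, a log2 fold change of −0.37 (SE 0.11, 95% interval −0.59 to −0.16, adjusted p = 0.0687 by edgeR's likelihood ratio test). The gene (ENSMUSG00000053819.17) lies on chromosome 3 of GRCm39 from 126389951 to 126639975 on the plus strand. Within that span GENCODE M39, a later annotation than the study names, places 7 other genes on the same strand and 4 on the opposite strand. It was also called by DESeq2 (adjusted p = 0.0621), which called 2 of the 10 genes and 2.57% of the features it gave an adjusted p, but not by edgeR's quasi-likelihood test (adjusted p = 0.150), which called 0.453% of all features and none of the 10 genes. Leaving out 1 library kept the direction each time and ended the call in 7 of 12 fits, without NK2 (edgeR adjusted p = 0.109), NK3 (0.186), NK6 (0.158), NK7 (0.157), NK9 (0.129), NK10 (0.150) or NK11 (0.207). The call also ended with scaling by library size only (edgeR adjusted p = 0.700) and with no filter beyond 1 count (0.181). Settings chosen after seeing the data kept it. The value was −0.50 with the GC trend removed (edgeR adjusted p = 0.00102) and −0.43 with the length trend removed (0.0115). With the ribosomal RNA share as a covariate it was −0.43 (0.0301).

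Astrocyte markers moved in the same direction as Camk2d. All 8 astrocyte markers examined had a log2 fold change below 0, with a median of −0.32, and 1 of them, the gap junction gene Gja1, was called. Their summed level ran from 184 to 245 CPM in libraries labelled TAAR5-KO and from 249 to 276 CPM in libraries labelled TAAR5-WT, without overlap, and none of the 8 was at 0 in any library. Since Camk2d and the marker sum were both split by label, no correlation over the 12 libraries is given. Within libraries labelled TAAR5-KO the r of log2 Camk2d with the log2 marker sum was 0.03 (n = 6) and within libraries labelled TAAR5-WT it was 0.42 (n = 6). Fewer cells of a type and less RNA per cell cannot be told apart in such bulk samples, and the part of astrocyte content in the Camk2d difference was not tested.

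The other CaMKII isoforms did not pass the test. Camk2a, on chromosome 18, had lowest, median and highest levels of 185, 252 and 297 CPM under the TAAR5-KO label against 194, 273 and 355 CPM under the TAAR5-WT label, and NK12, NK11 and NK7 of the latter lay above all of the former. Its log2 fold change had a 95% interval from −0.47 to 0.18. Camk2b varied least of the isoforms within labelled TAAR5-KO libraries, with 72.8 ± 5.01 CPM against 70.0 ± 6.61 CPM (SD, n = 6 each), a coefficient of variation of 6.89% and 9.44%. Its difference of 0.05 on the log2 scale (95% interval −0.13 to 0.23, edgeR adjusted p = 0.888) did not pass the test. Camk2g, whose gamma subunit has been described as a carrier of calmodulin to the nucleus, had 14.0 ± 2.95 CPM in libraries labelled TAAR5-KO and 15.9 ± 3.46 CPM in libraries labelled TAAR5-WT (95% interval of the log2 fold change −0.49 to 0.10). Both Camk2a and Camk2g spread widely within a label (coefficients of variation 19.5% to 25.0%), so that neither label formed a tight group.

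Each isoform was also expressed as its share of the summed CaMKII counts per kb of a library, a quantity that does not depend on how libraries are scaled. Camk2a made up most of the sum in every library, from 70.0% to 77.9% in those labelled TAAR5-KO and from 71.1% to 79.2% in those labelled TAAR5-WT. Camk2b followed with 18.7% ± 2.37 and 16.8% ± 2.53 (SD, n = 6 each), and Camk2g with 5.05% ± 0.590 and 5.35% ± 0.738. None of the isoform shares separated the labels. The share of Camk2d was 1.65% ± 0.428 in libraries labelled TAAR5-KO and 2.00% ± 0.542 in libraries labelled TAAR5-WT, a difference of −0.35 percentage points (95% interval −0.994 to 0.286, two-sided exact permutation p = 0.242, adjusted over 5 measures 0.404). Although its CPM did not overlap between the labels, its share did. The log2 ratio of Camk2a to Camk2b was 2.00 ± 0.24 and 2.19 ± 0.28 (SD, n = 6 each), a difference of −0.19 (95% interval −0.53 to 0.16, exact permutation p = 0.242, adjusted 0.404). When each library was left out, the difference ranged from −0.487 (without NK12) to −0.201 (without NK9) percentage points for Camk2d, from −2.23 (without NK10) to −0.376 (without NK5) for Camk2a, from 1.27 (without NK5) to 2.53 (without NK6) for Camk2b and from −0.487 (without NK7) to −0.056 (without NK10) for Camk2g. The log2 ratio of Camk2a to Camk2b then differed by −0.25 (without NK10) to −0.12 (without NK11). No unadjusted exact permutation p among these was below 0.110. The smallest p that 6 against 6 libraries allow is 0.00216. Without scaling by length, mean shares of raw counts for Camk2a, Camk2b, Camk2d and Camk2g were 69.9%, 21.4%, 4.64% and 4.05% in libraries labelled TAAR5-KO, and 71.0%, 19.1%, 5.61% and 4.29% in libraries labelled TAAR5-WT.

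**Figure D4:**
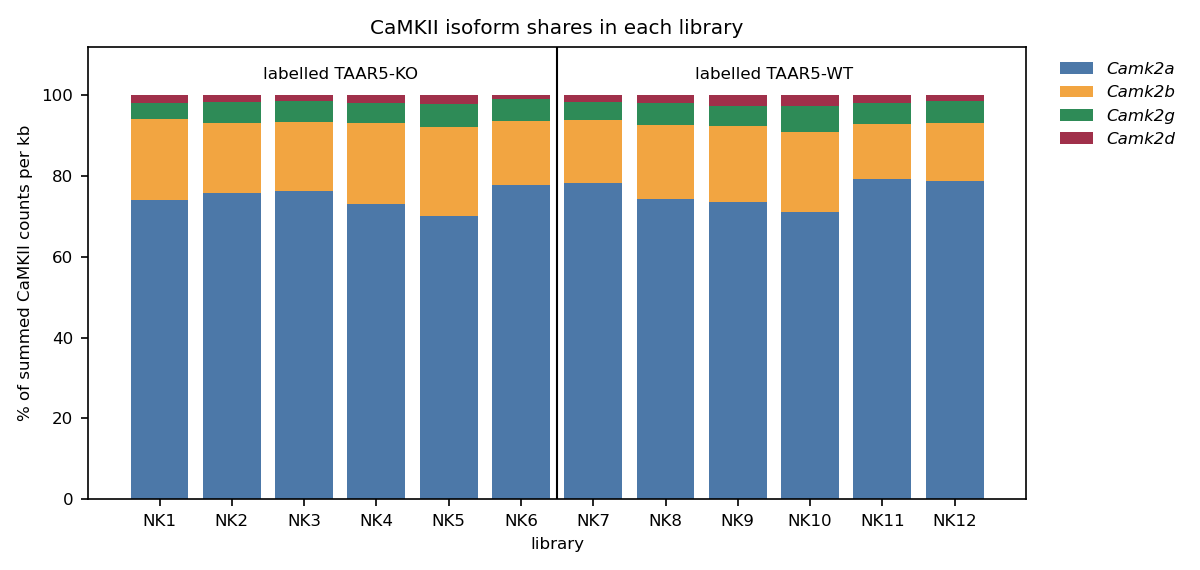
Share of each CaMKII isoform gene in the summed CaMKII counts per kb of each library, in percent, as stacked bars starting at 0, with libraries labelled TAAR5-KO on the left and those labelled TAAR5-WT on the right. Camk2a fills 70.0% to 79.2% of each bar and Camk2d at most 2.74%.

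The inhibitor genes did not pass the test. Camk2n2 encodes the second small CaMKII inhibitor, and its lowest, median and highest levels were 1.99, 2.88 and 4.36 CPM in libraries labelled TAAR5-KO against 2.30, 4.46 and 5.45 CPM in libraries labelled TAAR5-WT. The gene (ENSMUSG00000051146.4) lies on chromosome 16 of GRCm39 from 20437965 to 20440037 on the minus strand. The labels overlapped, since NK9 of the latter lay below 5 of the 6 libraries of the former. The log2 fold change was −0.50 (SE 0.19, 95% interval −0.88 to −0.12, edgeR adjusted p = 0.222), on 21 to 224 counts per library, and the gene was called without NK6 (−0.65, edgeR adjusted p = 0.0672) or without NK9 (−0.58, edgeR adjusted p = 0.0498). Its level fell as the ribosomal RNA share of the libraries rose, with a Pearson's r of −0.78 (n = 12, permutation p = 0.00267, adjusted over 80 relations 0.0305) and a Spearman's rho of −0.80. Without the 2 libraries farthest from the median share r was −0.70, within libraries labelled TAAR5-KO −0.82 and within libraries labelled TAAR5-WT −0.74. With that share as a covariate, a setting chosen after seeing the data, the log2 fold change of Camk2n2 was −0.29 (edgeR adjusted p = 0.596). Camk2n2 also ran opposite to the spiny neuron markers, which leaned higher under the TAAR5-KO label, with an r of −0.70 (n = 12, permutation p = 0.00369, adjusted 0.0305) and a rho of −0.82 (permutation p = 0.00185, adjusted 0.0185). That r was −0.77 without NK4 and NK11, −0.71 within libraries labelled TAAR5-KO and −0.56 within libraries labelled TAAR5-WT, and the part of spiny neuron content in the Camk2n2 difference was not tested. Camk2g and Camk2a leaned the same way with these markers. Their rho was −0.73 (adjusted permutation p = 0.0510) and −0.71 (0.0567), and their r was −0.59 (0.107) and −0.52 (0.149). For Camk2n1 the levels were 223 ± 49.4 and 218 ± 39.8 CPM (SD, n = 6 each), with a 95% interval of the log2 fold change from −0.27 to 0.34.

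Camk2n1 per kb was set against its target, the summed CaMKII isoforms, within each library. The mean log2 ratio was 0.20 ± 0.15 in libraries labelled TAAR5-KO and 0.07 ± 0.11 in libraries labelled TAAR5-WT. That is a difference of 0.13 (95% interval −0.04 to 0.30, exact permutation p = 0.104, adjusted over 2 ratios 0.104). In NK7 (−0.09) and NK12 (−0.02), both labelled TAAR5-WT, Camk2n1 lay below the sum, and in the other libraries above it. The same ratio for Camk2n2 was −4.22 ± 0.41 and −3.85 ± 0.27 (SD, n = 6 each), a difference of −0.37 (95% interval −0.85 to 0.09, exact permutation p = 0.0844, adjusted 0.104). The ratios thus leaned in opposite directions for the 2 inhibitors, and neither passed the test. An unadjusted exact permutation p of 0.0433 was reached for Camk2n1 without NK2 (0.17), and for Camk2n2 without NK5 (−0.47) or without NK9 (−0.47).

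Camk4, which phosphorylates the transcription factor CREB in the nucleus, was the other gene whose labels did not overlap. It (ENSMUSG00000038128.8) lies on chromosome 18 of GRCm39 from 33067984 to 33324281 on the plus strand. Its lowest, median and highest levels were 23.3, 25.0 and 31.7 CPM in libraries labelled TAAR5-KO and 18.5, 21.7 and 22.8 CPM in libraries labelled TAAR5-WT. All 6 libraries labelled TAAR5-KO were above all 6 labelled TAAR5-WT, with NK3 and NK1 the highest. The log2 fold change of 0.29 (SE 0.10, 95% interval 0.10 to 0.48) had an edgeR adjusted p of 0.129 and so was not called, whereas DESeq2 called it (0.30, adjusted p = 0.0808), as did edgeR without NK4 (adjusted p = 0.0702) or without NK5 (adjusted p = 0.0811). When libraries were scaled by size alone the value was −0.26, but the median of all features then moved to −0.49, so Camk4 still lay above that median and Camk2d, at −0.86, below it.

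Camk4 stood higher under the TAAR5-KO label, where astrocyte markers leaned lower and spiny neuron markers leaned higher, with overlapping spiny neuron sums. Since Camk4 and the astrocyte sum were both split by label, correlations are given within labels only. With the log2 astrocyte sum the r of log2 Camk4 was −0.73 within libraries labelled TAAR5-KO and −0.56 within libraries labelled TAAR5-WT (n = 6 each). With the log2 spiny neuron sum it was 0.47 and 0.90. The spiny neuron markers themselves had log2 fold changes above 0 for 10 of 10, with a median of 0.29 and none called. Their sum ran from 372 to 478 CPM in libraries labelled TAAR5-KO and from 222 to 410 CPM in libraries labelled TAAR5-WT. In the latter, NK11 alone gave the low end, and the next lowest, NK12, had 350 CPM. The part of cell content in the Camk4 difference was not tested.

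The upstream kinases and Camk1d did not pass the test. Camkk1 had 3.08 ± 0.671 and 3.23 ± 0.412 CPM in libraries labelled TAAR5-KO and TAAR5-WT, with a 95% interval of the log2 fold change from −0.30 to 0.25. Camkk2, the kinase kinase that also phosphorylates AMPK, had 18.7 ± 4.95 and 16.8 ± 4.23 CPM (−0.20 to 0.48). Camk1d, a CaM kinase I isoform, had 23.7 ± 3.21 and 22.1 ± 1.47 CPM (−0.11 to 0.27).

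For 4 of the 10 genes, the level went with the summed cortical neuron markers at an adjusted permutation p under 0.05, also within each label. Cortical pyramidal neuron markers summed to 58.9 to 143 CPM in libraries labelled TAAR5-KO and 61.8 to 156 CPM in libraries labelled TAAR5-WT, and none of the 10 was called. Across the 12 libraries the log2 sum and log2 Camk2a had an r of 0.94 (permutation p = 4e-05, adjusted over 80 relations 0.0024) and a rho of 0.87 (permutation p = 0.00047). Without NK4 and NK9 r was 0.93, and it was 0.98 within libraries labelled TAAR5-KO and 0.96 within libraries labelled TAAR5-WT. The r was 0.91 for Camkk2 (0.87 without NK4 and NK9), 0.91 for Camk2n1 (0.86) and 0.84 for Camk2g (0.74), with adjusted permutation p-values of 0.0024, 0.00267 and 0.00832. Within libraries labelled TAAR5-KO it was 0.96, 0.88 and 0.86, and within libraries labelled TAAR5-WT 0.91, 0.96 and 0.91. Camk1d fell just short, with an r of 0.68 (adjusted permutation p = 0.0516, 0.56 without NK4 and NK9). Its r was 0.84 within libraries labelled TAAR5-KO and 0.58 within libraries labelled TAAR5-WT. For Camk2b r was 0.67 (adjusted permutation p = 0.080) and rho 0.70, and r was only 0.39 without NK4 and NK9. Within libraries labelled TAAR5-KO its r was 0.73, and within libraries labelled TAAR5-WT 0.68. Other measures moved with some of the same genes. With the log2 counts outside ribosomal RNA the r was 0.74 for Camk2n1 (adjusted permutation p = 0.0397, 0.67 without NK10 and NK12), 0.73 for Camk2b (adjusted 0.050, 0.63 without them) and 0.69 for Camk2a (adjusted 0.0601, 0.50 without them). With the oligodendrocyte sum it was −0.76 for Camk2b (adjusted permutation p = 0.0305, −0.68 without NK10 and NK12). Choroid plexus markers summed to 2.60 to 8.30 CPM in NK1, NK2, NK3, NK6 and NK12 and to 113 to 473 CPM in the other 7 libraries, and with such separate clusters no r over the 12 libraries is given for them. The parts of residual cortex, other cell types and depth in the spread of these genes were not tested.

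**Figure D5:**
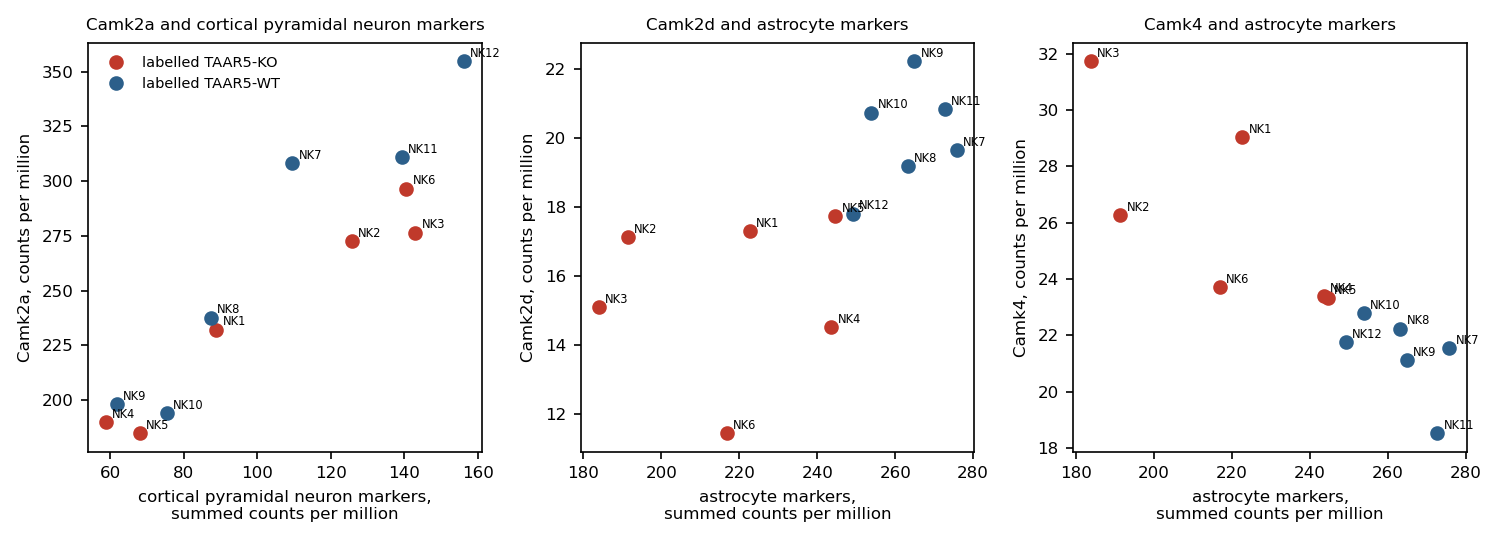
Camk2a against the summed cortical pyramidal neuron markers, and Camk2d and Camk4 against the summed astrocyte markers, all in CPM with 1 point per library (red labelled TAAR5-KO, blue labelled TAAR5-WT). Camk2a rises with the cortical sum under both labels, while the astrocyte sums of the labels do not overlap, 184 to 245 CPM against 249 to 276 CPM.

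Around the 10 genes, 48 genes of the calcium and calmodulin pathway in 8 lists were all tested and none was called, with 5 at an unadjusted p under 0.05, against 11.9% of all features, and a median log2 fold change of 0.02. DESeq2 called 2 of the 48, against 2.57% of the features it gave an adjusted p, so both counts were near the background. Ppp3ca, the catalytic subunit of the calmodulin-activated phosphatase calcineurin, had 249.6 ± 26.6 CPM in libraries labelled TAAR5-KO and 205 ± 14.6 CPM in libraries labelled TAAR5-WT (log2 fold change 0.29, edgeR adjusted p = 0.162, DESeq2 adjusted p = 0.0232). Lrrc7, the densin scaffold that binds CaMKII at the synapse, had 58.6 ± 6.71 and 47.1 ± 5.95 CPM (0.31, edgeR adjusted p = 0.148, DESeq2 adjusted p = 0.0807), and edgeR called it without NK4 or NK5 (adjusted p = 0.0974 and 0.0958).

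The rest of the pathway gave smaller or less certain differences. Of 3 calmodulin genes, Calm2 had a log2 fold change of 0.26 (edgeR adjusted p = 0.309) and Calm3 of −0.11. Of 9 other kinases listed, Eef2k, which phosphorylates elongation factor 2, had −0.29 (edgeR adjusted p = 0.356) and Camk1g −0.32. Of 5 calmodulin reservoir proteins, Pcp4 had 0.29 and Gap43 −0.16. Of 8 calcineurin genes, the anchor Akap5 had 0.30 (edgeR adjusted p = 0.263). These values were all short of the threshold. Among 10 CaMKII anchors and substrates, 8 lay above 0 with a median of 0.13, with the NMDA receptor subunit gene Grin2a at 0.31. In the CREB branch (5 genes) Creb1 had 0.13 and Crtc3 −0.26, in the AMPK branch (6 genes) Prkab1 had −0.23 and Prkag1 0.29, and of the 2 CaM kinase phosphatases Ppm1f had −0.24 and Ppm1e −0.06.

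The genes whose log2 CPM followed each isoform most closely over the 12 libraries differed between isoforms. For Camk2a these were Shank1 (Pearson's r 0.95), Olfm1 (0.95) and Cyfip2 (0.95), for Camk2b Kctd1 (0.95), Add2 (0.93) and Dlgap2 (0.92), and for Camk2g they included Hk1 (0.97) and Bbln (0.93). For Camk2d they were Xrcc3 (0.93), Mboat2 (0.90) and 2900052N01Rik (0.87). Camk2d was split by label, so its r over the 12 libraries includes the difference between the labels. Within libraries labelled TAAR5-KO the r was 0.85, 0.78 and 0.83, and within libraries labelled TAAR5-WT 0.77, 0.60 and 0.93. These values are descriptions over libraries that share depth and tissue differences.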

How the data were processed

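Striatal RNA of 6 TAAR5-KO and 6 TAAR5-WT mice was sequenced after ribosomal RNA depletion. Per the submitters' processing notes and the methods, the authors used cutadapt 4.1 for trimming, STAR 2.7.11b for alignment on GRCm39 and featureCounts 2.0.6 for counting. The deposited values are raw counts per gene, unnormalised, and 12 further count columns that match no sample here were not used. Libraries were grouped by the labels. Separate animals are the replicates.

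Counts were analysed in edgeR 4.0.16 (R 4.3.3) with TMM factors and the study's likelihood ratio test over the 13902 features that reached 0.5 CPM in 3 or more libraries, with Benjamini-Hochberg adjustment and a threshold of 0.1. This filter used library sizes before TMM scaling. The study tested fewer features, so its filter was not exactly this one. On TMM sizes, a setting chosen after seeing the data, 13053 features were tested, the same number as the study reports. With that filter 234 were called, more than in the study, and the edgeR adjusted p of Camk2d was 0.0638. Log2 CPM used a prior count of 2. Lengths were merged exons of the deposited table, and sequences were read from GRCm39. Transcripts, coding exons and overlapping genes came from GENCODE M39, a later release than the study names. Isoform shares and inhibitor ratios were tested by exact permutation over 924 assignments and correlations by 100000 permutations. Both were computed in NumPy 2.4.6, with ranks from SciPy 1.17.1. The likelihood ratio test was checked on simulated counts. Alternatives were the quasi-likelihood test, DESeq2 1.42.0, other scalings and filters, and leaving out each library. The floor of 3 counts covers counting error only.

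All 10 genes are given by symbol. Likeness lists hold the 3 features with the highest r for each CaMKII isoform, and pathway lists name genes past the threshold or otherwise the 2 with the smallest p. A single likeness result is not reported here. The genes and lists were chosen with earlier results of these data known.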

Additional observations from a re-analysis of the deposited data

How the results depend on the processing

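No paired analysis was possible because the library columns carry numbers that are not tied to animals, litters or days. The count of CaM kinase genes called, 1, became 0 at an adjusted p under 0.05, with edgeR's quasi-likelihood test, with scaling by library size only and with no filter beyond 1 count, and 2 with DESeq2. It ranged from 0 to 2 when each library was left out. Features called, 229, became 108, 63, 7 and 93 under the first 4 of these, 86 with the trend on GC content removed and 98 with the ribosomal RNA share as a covariate. Leaving out each library gave 85 (without NK11) to 415 (without NK4), with 114 without NK1 or NK2, 137 without NK3, 102 without NK7 and 136 without NK12. The GC, length, ribosomal RNA covariate and TMM-size filter settings were chosen after seeing the data. With library size only, 0 of 7 calls were higher, against 133 of 229, and the values were −0.51 for Camk2b, −0.54 for Camk2n1, −0.26 for Camk4, −0.46 for Camkk2 and −0.48 for Camk1d, against an all-feature median of −0.49. Values near 0 changed sign without single libraries, Camk2n1 ranging from −0.055 to 0.11 and Camkk1 from −0.067 to 0.044, and with the GC trend removed Camkk1 was 0.080. Camk2d kept its direction in 24 of 24 alternatives and its call in 13. These 13 include the GC, length, ribosomal RNA covariate and TMM-size filter settings, and only 5 of the 12 fits without 1 library. Camk2n2 kept its direction in 24 of 24. The alternatives are not independent, since the fits share most libraries. At an adjusted p under 0.05 the fit was the main one, so no direction could change. The inhibitor ratios ranged from 0.10 to 0.17 (Camk2n1) and from −0.47 to −0.26 (Camk2n2) when each library was left out. The causes were not tested. Depth limits Camk2n2 and Camkk1 most, with as few as 21 and 29 counts in a library.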

Other observations

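The summed markers of 3 further cell types overlapped between the labels, as the spiny neuron and cortical sums did. Oligodendrocyte markers (8 genes, none called) summed to 420 to 470 CPM in libraries labelled TAAR5-KO and 369 to 537 CPM in libraries labelled TAAR5-WT. Of these, 7 had a log2 fold change below 0 (median −0.14). Interneuron markers (8 genes, none called) summed to 84.9 to 124 CPM and 91.8 to 119 CPM, with 5 below 0 (median −0.05). Choroid plexus markers (6 genes, none called) varied most, from 2.60 to 473 CPM and from 3.69 to 288 CPM, with 2 of the 6 at 0 in at least 1 library. All 6 had a log2 fold change below 0 (median −0.49).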
